A study of Arabidopsis thaliana with 9 samples.

Results

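Polycomb repressive complex 2 (PRC2) is the enzyme complex that places 3 methyl groups on lysine 27 of histone H3. The 10 genes described here, of 27655 in the table, were picked by locus identifier. They encode the 2 leaf methyltransferases CLF and SWN, the zinc-finger subunits EMF2 and VRN2, the WD40 subunits FIE and MSI1, the chromodomain reader LHP1, and the PHD-finger proteins VIN3, VRN5 and VEL1. Leaf RNA was sequenced from Arabidopsis thaliana plants at 3 weeks, grown at 22 °C in 16 h light and 8 h dark. There were 3 libraries each of wild type (WT, Col), of atxr5;atxr5;atxr6hyp;atxr6hyp plants (hyp/hyp) and of atxr5;atxr5;atxr6hyp;atxr6c-1 plants (hyp/c-1). Both mutants are homozygous for an atxr5 allele and both carry atxr6hyp; they differ in the second ATXR6 allele, and no group carried 1 of these alleles alone. The study asked what could underlie developmental abnormalities of hyp/c-1 plants that go beyond those of hyp/hyp plants.

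In plants, PRC2 keeps developmental genes silent outside their own tissue and time, among them floral homeotic genes, KNOX meristem genes and flowering repressors such as FLC. Each complex holds a methyltransferase, a zinc-finger subunit of the Su(z)12 type, FIE and an MSI1-type protein, and CLF and SWN overlap in function. ATXR5 and ATXR6 act on the same lysine but add a single methyl group, mainly at heterochromatin, and are separate from PRC2.

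Recovered depth ran from 21289647 reads in hyp/hyp replicate 2 to 38766556 in hyp/c-1 replicate 1. The targeted genes were both lower in the mutants. ATXR5 had 4.28 ± 0.0811 TPM in WT, 1.83 ± 0.297 in hyp/hyp plants and 1.64 ± 0.0885 in hyp/c-1 (SD, n = 3 each; limma adjusted p = 0.000596 and 0.000232 against WT). ATXR6 read counts were 40 to 41 per WT library, 0 to 3 per hyp/hyp library and 0 to 2 per hyp/c-1 library, which is at least 11.1-fold and 13.9-fold lower than WT against a floor of 3 reads per library. Neither transcript tells the 2 mutants apart (adjusted p = 0.578 for ATXR5 and 0.811 for ATXR6). The leaf label was borne out by photosynthesis genes: 5 leaf markers summed to 62020 to 63469 TPM in WT, 49301 to 55993 in hyp/hyp plants and 52569 to 66385 in hyp/c-1. Of the 3 listed shoot meristem genes, WUS and CLV3 were at 0 in all 9 libraries, and STM had at most 0.0360 TPM in any library. The labels do not say which plants or cultures the libraries came from, so p-values measure the spread between these libraries, which may be technical. In bulk leaf RNA, fewer cells of a type and less RNA per cell cannot be told apart.

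Of the 10 genes, 9 passed the expression minimum and were tested. The test found 1 of the 9 lower in each mutant against WT, CLF in both, and none higher. Among all 17683 genes tested, 20.8% passed in hyp/hyp against WT (9.31% lower, 11.5% higher) and 20.4% in hyp/c-1 against WT (9.21% lower, 11.2% higher), so a count of 1 of 9 is no result about these genes as a group. These shares depend on which libraries are in the fit. Without WT replicate 1 they were 10.4% and 11.4%, and without WT replicate 2 they were 11.7% and 11.3%, and CLF did not pass in those fits. Without WT replicate 3 both shares were 14.0%. Leaving out a mutant library gave 14.2% to 25.7% in hyp/hyp against WT and 16.9% to 22.4% in hyp/c-1 against WT. Between the mutants none of the 9 passed, against 2.84% of all genes, and none reached an unadjusted p under 0.05, against 4432 of all genes tested. The share of 2.84% between the mutants moved by more than 1.5 times whichever library was left out, from 0.00566% (1 gene) without hyp/hyp replicate 2 to 16.2% (2858 genes) without hyp/c-1 replicate 1. With an absolute log2 difference of at least 1 also required, no PRC2 gene passed in any comparison, against 2.87%, 3.2% and 0.52% of all genes. The median log2 difference of the 9 stood at 0.05 in hyp/hyp, −0.04 in hyp/c-1 and −0.02 between the mutants, beside 0.06, −0.02 and −0.06 over all genes. Summed TPM of the 10 genes was 118 to 124 in WT, 120.1 to 129 in hyp/hyp plants and 114 to 128 in hyp/c-1, so the ranges overlap. Comparisons of each mutant with WT share the 3 WT libraries.

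**Figure D1:**
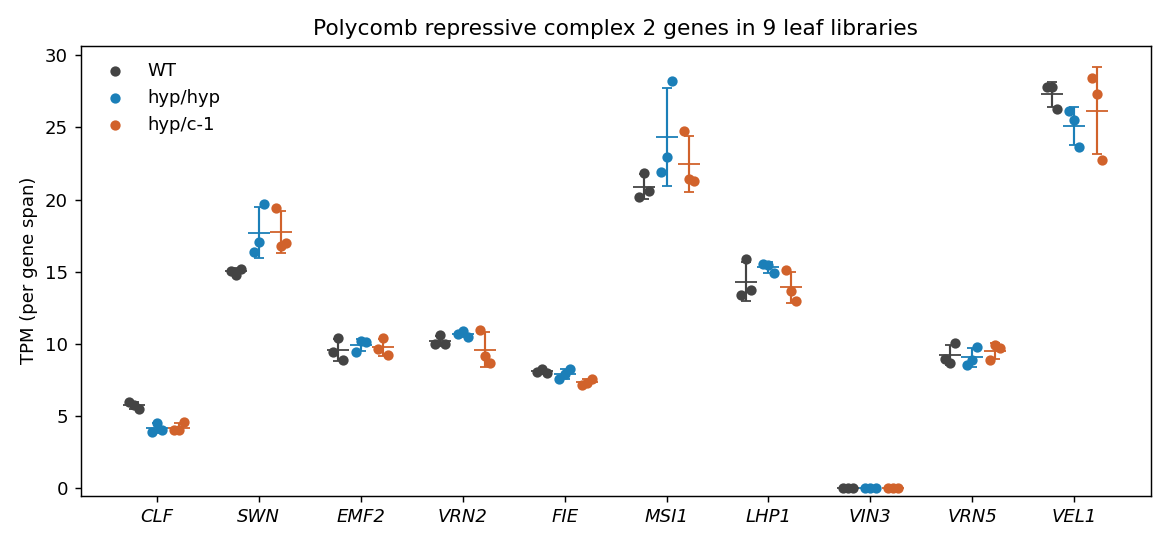
TPM (divided by gene span) of each PRC2 gene in 9 libraries, coloured by genotype with 3 each; points are libraries, and the bar is the mean with its SD. The mutant points of CLF lie below all 3 WT points, those of SWN lie above them, and VIN3 lies at 0.

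Levels can be compared between genes only per length, and per summed exon length the order over the 9 libraries ran from VEL1 at 29.0 TPM through MSI1 at 23.9, SWN at 20.6, EMF2 at 16.7, VRN2 at 15.1, LHP1 at 14.4, FIE at 14.0, VRN5 at 7.58 and CLF at 5.47 to VIN3 at 0.00511. The ranges of VEL1 and MSI1 overlapped, as did those of MSI1 and SWN and of neighbours from EMF2 to FIE. FIE ranged from 12.9 to 14.8 TPM and VRN5 from 7.03 to 8.21, so a gap separates them. The deposited values, divided by span, put LHP1 above VRN2 and EMF2 and put VRN5 above FIE, because the span of FIE is 2.33 times its exon length and that of VRN5 1.06 times. No stretch of 50 bases within an exon of the 10 genes occurs elsewhere in the genome as an exact match. Their introns, which the span includes, were not checked. Values below are the deposited ones, in TPM per span.

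CLF (AT2G23380, chromosome 2, 9955092 to 9960386, plus strand, TAIR10.1) encodes CURLY LEAF, the main methyltransferase of PRC2 in leaves. It had 5.96, 5.76 and 5.52 TPM in the WT libraries, 3.90, 4.55 and 4.06 in hyp/hyp plants and 4.02, 4.02 and 4.59 in hyp/c-1, from 243 to 504 reads. All 6 mutant libraries lay below all 3 WT libraries, and the mutants overlapped each other. The mean fell by 27.4% in hyp/hyp, from 5.75 ± 0.22 to 4.17 ± 0.341 TPM (log2 difference −0.38, SE 0.09, 95% interval −0.59 to −0.18, adjusted p = 0.0178). In hyp/c-1 it fell by 26.7% to 4.21 ± 0.326 TPM (log2 difference −0.37, interval −0.58 to −0.16, adjusted p = 0.020). The 2 mutants differed by 0.01 (interval −0.20 to 0.22, adjusted p = 0.954). The call in hyp/hyp was lost without WT replicate 1, WT replicate 2 or hyp/hyp replicate 1 (log2 difference −0.38 to −0.35, adjusted p = 0.0544 to 0.0774), and that in hyp/c-1 without WT replicate 1, WT replicate 2 or hyp/c-1 replicate 2 (−0.37 to −0.35, adjusted p = 0.0611 to 0.0827). The gene overlaps AT2G23370 by 58 bp and AT2G23390 by 22 bp, both on the other strand, and the treatment of strand is not stated.

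SWN (AT4G02020, chromosome 4, 886580 to 891987, plus strand) encodes SWINGER, the second leaf methyltransferase. It had 15.1, 14.8 and 15.2 TPM in WT, 16.4, 17.1 and 19.7 in hyp/hyp plants and 19.4, 16.8 and 17.0 in hyp/c-1. Again no mutant library overlapped WT, but here the mutants lay above it. The differences from WT did not pass after adjustment: 0.22 in hyp/hyp (interval 0.01 to 0.43, adjusted p = 0.122) and 0.22 in hyp/c-1 (interval 0.01 to 0.43, adjusted p = 0.125). The WT mean was 15.0 ± 0.219 TPM, and both mutants had a mean of 17.7 TPM, with an SD of 1.76 in hyp/hyp plants and 1.45 in hyp/c-1. After median-of-ratios scaling the hyp/c-1 difference passed, with the same size and an adjusted p of 0.0428. The same scaling took the hyp/hyp difference to 0.16 (adjusted p = 0.121), and quantile normalization took it to 0.13 (adjusted p = 0.191). Without hyp/hyp replicate 3 it was 0.14 (adjusted p = 0.342). Without hyp/c-1 replicate 1 the hyp/c-1 difference was 0.16 (adjusted p = 0.244). Over 19 alternatives SWN ranged from 0.13 to 0.27 in hyp/hyp and from 0.16 to 0.26 in hyp/c-1.

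Because CLF and SWN occupy the same place in the complex, their ratio was taken within each library, a comparison chosen after the values were seen and given with no test. SWN was 2.53, 2.57 and 2.76 times CLF in WT (2.62 ± 0.121). In hyp/hyp the ratio was 4.2, 3.76 and 4.85 (4.27 ± 0.549), and in hyp/c-1 it was 4.83, 4.18 and 3.70 (4.24 ± 0.567). Every mutant library had a higher ratio than every WT library. This had to follow, because all mutant libraries lay below all WT libraries for CLF and above them for SWN. The separation of the ratio adds nothing to those orderings, and the share of other gene pairs that separate was not counted. The ratio sets values per span side by side, and gene length does not change between libraries. Across the 9 libraries Pearson's r of CLF with SWN was −0.78 on the log2(TPM + 1) scale, over points that share the genotype difference.

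**Figure D2:**
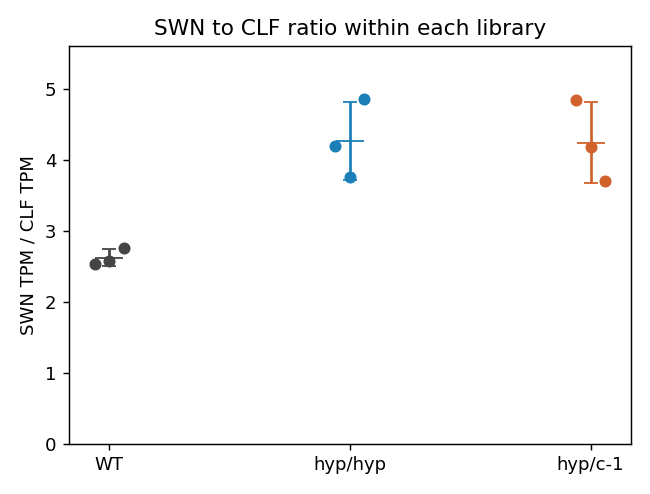
Ratio of SWN TPM to CLF TPM in each library, by genotype; points are libraries, and the bar is the mean with its SD. WT libraries lie at 2.53 to 2.76 and mutant libraries at 3.70 to 4.85. The gap follows from CLF being lower and SWN higher in all mutant libraries than in all WT libraries.

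The 2 zinc-finger subunits held close to their WT levels. EMF2 (EMBRYONIC FLOWER 2, AT5G51230, chromosome 5, 20823644 to 20829644), which keeps the floral programme silent in vegetative tissue, had 9.47, 10.4 and 8.90 TPM in WT, 9.45, 10.2 and 10.2 in hyp/hyp plants and 9.67, 10.4 and 9.26 in hyp/c-1. The 3 genotypes overlapped, with log2 differences from WT of 0.05 (interval −0.15 to 0.25, adjusted p = 0.731) and 0.03 (interval −0.17 to 0.22, adjusted p = 0.868). VRN2 (VERNALIZATION 2, AT4G16845, chromosome 4, 9476069 to 9479878), which serves the cold-induced silencing of FLC, had 9.99, 10.6 and 10.04 TPM in WT, 10.7, 10.9 and 10.5 in hyp/hyp plants and 11.0, 9.18 and 8.67 in hyp/c-1. Hyp/c-1 replicates 2 and 3 were the lowest of the 9 and replicate 1 the highest, so the genotypes overlapped (0.06, adjusted p = 0.688, and −0.09, adjusted p = 0.577). The ratio of EMF2 to VRN2 was 0.939 ± 0.0482 in WT, 0.931 ± 0.0435 in hyp/hyp plants and 1.03 ± 0.131 in hyp/c-1.

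FIE (FERTILIZATION INDEPENDENT ENDOSPERM, AT3G20740, chromosome 3, 7248809 to 7252452), the WD40 subunit shared by all plant PRC2 forms, had 8.06, 8.29 and 7.98 TPM in WT, 7.54, 7.92 and 8.24 in hyp/hyp plants and 7.20, 7.31 and 7.57 in hyp/c-1. Its hyp/c-1 libraries all lay below WT, but the difference of −0.12 did not pass (interval −0.30 to 0.05, adjusted p = 0.302). The hyp/hyp libraries overlapped WT (−0.03, adjusted p = 0.781). FIE overlaps 2 annotated genes on the other strand, 1 of them a long noncoding RNA over 210 bp, and their reads cannot be separated without strand.

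MSI1 (MULTICOPY SUPPRESSOR OF IRA1, AT5G58230, chromosome 5, 23556012 to 23558245) is a histone-binding subunit that also belongs to the chromatin assembly complex CAF-1. It had 20.2, 21.9 and 20.6 TPM in WT, 21.9, 23.0 and 28.2 in hyp/hyp plants and 24.7, 21.5 and 21.3 in hyp/c-1. The hyp/hyp libraries lay above WT, with replicate 3 the highest of all 9 and replicate 1 just above the highest WT value. Neither difference from WT passed: 0.20 in hyp/hyp (interval −0.03 to 0.44, adjusted p = 0.199) and 0.10 in hyp/c-1 (interval −0.14 to 0.34, adjusted p = 0.567). MSI1 and SWN were both highest in hyp/hyp replicate 3 and hyp/c-1 replicate 1, and their r across the 9 libraries was 0.86. Without hyp/hyp replicate 3 the median log2 difference over all genes moved from 0.06 to 0.03 in hyp/hyp against WT. Without hyp/c-1 replicate 1 it moved from −0.02 to −0.06 in hyp/c-1 against WT. The r of MSI1 with SWN includes such shifts over all genes and the difference between genotypes. MSI1 overlaps AT5G58240 by 132 bp on the other strand.

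LHP1 (LIKE HETEROCHROMATIN PROTEIN 1, AT5G17690, chromosome 5, 5827142 to 5829763) binds the mark that PRC2 makes. Its libraries had 13.4, 15.9 and 13.7 TPM in WT, 15.5, 15.5 and 14.9 in hyp/hyp plants and 15.1, 13.7 and 13.0 in hyp/c-1. The spread within WT spanned both mutants except for hyp/c-1 replicate 3, the lowest of the 9 (log2 differences 0.09, adjusted p = 0.498, and −0.04, adjusted p = 0.820).

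The PHD-finger proteins join PRC2 at FLC during and after cold. VIN3 (VERNALIZATION INSENSITIVE 3, AT5G57380, chromosome 5, 23246395 to 23249504), the member that is induced by prolonged cold, had 1 read in WT replicate 2, 1 in hyp/c-1 replicate 3 and 0 in the other 7 libraries. A floor of 3 reads corresponds to 0.0530 to 0.0957 TPM for this gene, so no difference was detectable at this depth and no fold is given. VRN5 (AT3G24440, chromosome 3, 8875784 to 8878481) had 8.98, 8.70 and 10.04 TPM in WT, 8.57, 8.86 and 9.78 in hyp/hyp plants and 8.88, 9.92 and 9.74 in hyp/c-1, and the 3 genotypes overlapped (log2 differences −0.02, adjusted p = 0.874, and 0.04, adjusted p = 0.811). VEL1 (AT4G30200, chromosome 4, 14786532 to 14790501), the most abundant of the 10, had 27.8, 27.8 and 26.3 TPM in WT, 26.1, 25.5 and 23.7 in hyp/hyp plants and 28.4, 27.3 and 22.7 in hyp/c-1. Its hyp/hyp libraries lay just below WT, but the difference of −0.12 did not pass (interval −0.33 to 0.09, adjusted p = 0.403), nor did −0.06 in hyp/c-1 (adjusted p = 0.689). Hyp/c-1 replicate 3 was the lowest of the 9 for VEL1, VRN2 and LHP1, and also for genes that are not members, such as VAL1, BLI and EMF1. Without that library the median log2 difference over all genes in hyp/c-1 against WT moved from −0.02 to 0.01. The share of all genes that are lowest in it was not counted.

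Counting the members whose mutant and WT libraries did not overlap gave 4 of 9 in hyp/hyp (SWN and MSI1 above, CLF and VEL1 below) and 3 of 9 in hyp/c-1 (SWN above, CLF and FIE below). Over all genes tested the libraries did not overlap for 47.3% in hyp/hyp (27.5% above, 19.9% below) and for 38.3% in the hyp/c-1 comparison (19% above, 19.3% below). Between the mutants the count was 0 of 9, against 23.8% of all genes.

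**Figure D3:**
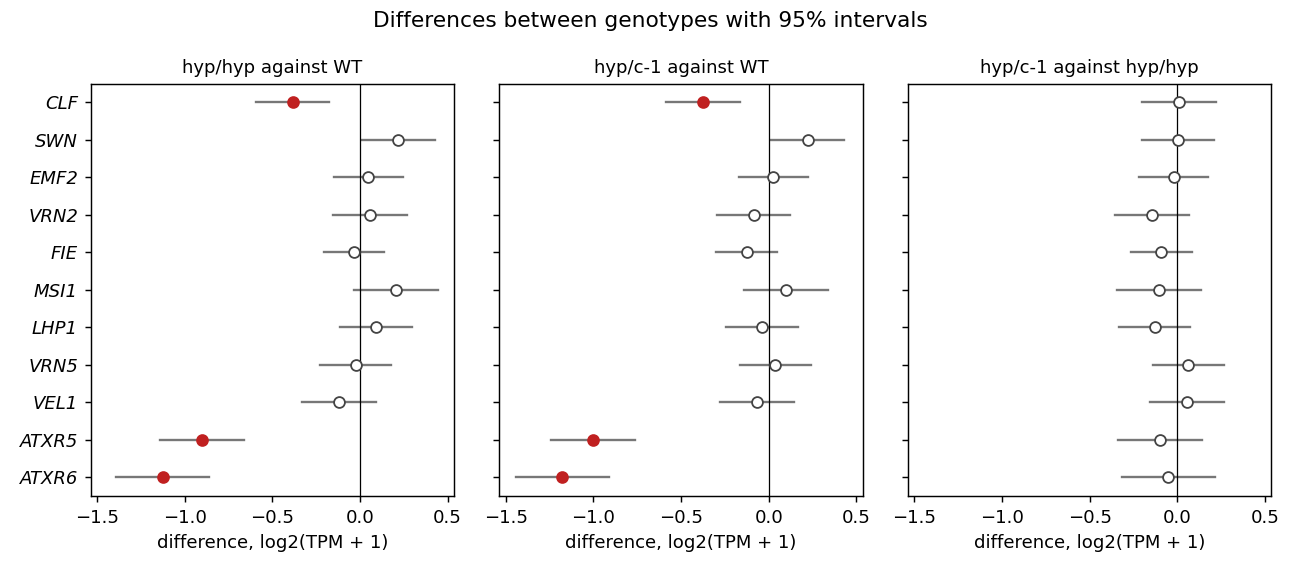
Differences in log2(TPM + 1) for the 9 tested PRC2 genes, with ATXR5 and ATXR6, in 3 comparisons; the point is the limma estimate, the line its 95% interval, and a filled point marks an adjusted p under 0.05. CLF lies at −0.38 and −0.37 against WT, the other 8 PRC2 genes have open points, and every point is open between the mutants.

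The genes whose levels followed CLF most closely over the 9 libraries, among 13871 genes averaging 5 TPM or more, were GLY1 (r = 0.99), AT5G41900 (r = 0.99) and AT1G70200 (r = 0.98). GLY1, which encodes a glycerol-3-phosphate dehydrogenase of plastid lipid synthesis, had 8.09 ± 0.541, 5.27 ± 0.464 and 5.33 ± 0.654 TPM in the 3 genotypes, in the order WT, hyp/hyp, hyp/c-1. For SWN they were PUP1, which encodes a purine permease (r = 0.98, with 22.3 ± 1.3, 28.8 ± 3.94 and 29.9 ± 5.08 TPM), AT5G56350 (r = 0.98) and AT1G43690 (r = 0.97). These coefficients are the highest of many and include the difference between genotypes.

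Other subunits of PRC2 were taken from a list of 8, of which 4 were tested. Counts for this and the following lists stand beside the same shares of all genes, 20.8% in hyp/hyp, 20.4% for hyp/c-1 and 2.84% between the mutants. One of the 4 passed, in hyp/c-1 alone: MSI3, a relative of MSI1, with 11.7, 11.3 and 9.58 TPM in WT, 7.72, 8.70 and 10.7 in hyp/hyp plants and 8.75, 7.46 and 6.73 in hyp/c-1. The hyp/c-1 libraries lay below WT (log2 difference −0.46, SE 0.14, adjusted p = 0.0379), while the hyp/hyp libraries overlapped both (−0.25, adjusted p = 0.22), and the mutants did not differ past the threshold (−0.21, adjusted p = 0.345). The call was lost without an expression minimum (adjusted p = 0.0582) and without WT replicate 1 or 2, hyp/hyp replicate 2, or hyp/c-1 replicate 2 or 3 (adjusted p = 0.0586 to 0.136). MSI2, the closest relative of MSI3, had 12.1 ± 0.795, 13.9 ± 0.583 and 12.9 ± 0.168 TPM and did not pass (0.19, adjusted p = 0.120, and 0.08, adjusted p = 0.535). MEA, the methyltransferase of the endosperm complex, had 0, 2 and 2 reads in the WT libraries, 3, 1 and 5 in hyp/hyp plants and 13, 6 and 6 in hyp/c-1. Its hyp/c-1 libraries were all above the rest, at least 2.58-fold over a floor of 3 reads per WT library, and the gene was under the expression minimum.

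The PRC1 and silencing list holds subunits of PRC1, which ubiquitinates histone H2A, and other partners in Polycomb silencing. It had 9 of 10 genes tested, and 1 rose in hyp/hyp plants and none in hyp/c-1. The median log2 difference was 0.11 in hyp/hyp plants and 0.01 in hyp/c-1, beside 0.06 and −0.02 over all genes. RING1B, a ubiquitin ligase subunit of PRC1, had 2.27, 1.84 and 1.98 TPM in WT, 4.06, 3.95 and 5.41 in hyp/hyp plants and 4.06, 2.85 and 2.68 in hyp/c-1. Every mutant library was above every WT library. It rose 2.20-fold in hyp/hyp (by 0.85 on the log2 scale, with SE 0.15 and adjusted p = 0.00431), and the difference of 0.46 in hyp/c-1 did not pass (adjusted p = 0.0576). The 2 mutants were not shown to differ (−0.39, adjusted p = 0.152). Its partner RING1A had 3.52, 3.32 and 3.11 TPM (adjusted p = 0.764 and 0.498); it was chosen after its values were seen, for the contrast with RING1B.

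Among 12 interactors and readers of PRC2, 2 rose and 1 fell in hyp/hyp, and 1 rose and 1 fell in hyp/c-1, counts near the shares of all genes that passed (20.8% and 20.4%). SHL, a reader of histone H3 that binds the PRC2 mark, had 28.0, 29.4 and 27.6 TPM in WT, 35.8, 34.7 and 34.4 in hyp/hyp plants and 38.4, 35.3 and 38.5 in hyp/c-1. All mutant libraries were above WT (0.29, adjusted p = 0.0179, and 0.39, adjusted p = 0.00492). ICU2, the catalytic subunit of DNA polymerase alpha, had 4.79, 4.79 and 4.92 TPM in WT, 3.14, 3.67 and 3.33 in hyp/hyp plants and 3.14, 3.61 and 3.46 in hyp/c-1. All mutant libraries were below WT, with a drop close to that of CLF (−0.42, adjusted p = 0.0123, and −0.41, adjusted p = 0.0134). LIF2, an RNA-binding partner of LHP1 named here after its values were seen, was the other gene to rise in hyp/hyp (23.1 ± 1.35 to 28.3 ± 1.19 TPM, 0.29, adjusted p = 0.0278). Its hyp/c-1 libraries, at 25.6 ± 1.02 TPM, also lay above WT, but the difference did not pass (0.15, adjusted p = 0.228). The SHL call in hyp/hyp was lost after quantile normalization (0.22, adjusted p = 0.0687) and without WT replicate 1 or 3 or hyp/hyp replicate 1 or 2 (adjusted p = 0.0538 to 0.0774), and the ICU2 call in hyp/c-1 without WT replicate 1 (adjusted p = 0.0501).

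Of 5 demethylases that act on lysine 27, JMJ30 fell in both mutants and the other 4 did not pass. JMJ30, whose transcript is known to cycle with the circadian clock, had 63.7, 83.6 and 48.4 TPM in WT, 20.1, 26.6 and 41.7 in hyp/hyp plants and 18.6, 10.3 and 7.47 in hyp/c-1. The 3 genotypes did not overlap, falling from WT through hyp/hyp to hyp/c-1. The differences from WT were −1.15 (SE 0.33, adjusted p = 0.0359) and −2.39 (SE 0.33, adjusted p = 0.00117), and that between the mutants, −1.25, did not pass (adjusted p = 0.0700). In hyp/hyp the call was lost with no expression minimum (adjusted p = 0.0598) and without WT replicate 1 or 2 or hyp/hyp replicate 1 or 2 (log2 difference −1.15 to −0.91, adjusted p = 0.0960 to 0.127).

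Clock genes moved beside JMJ30. Of 10 tested clock genes, 4 rose and 1 fell in hyp/hyp, and 4 rose and 4 fell in hyp/c-1. CCA1, a morning repressor, had 1.48 ± 0.677 TPM in WT, 8.94 ± 2.37 in hyp/hyp plants and 15.6 ± 3.74 in hyp/c-1 (2.0, adjusted p = 0.000567, and 2.76, adjusted p = 5.56e-05). RVE8, PRR9 and PRR7 were the other genes to rise in both. TOC1, an evening gene, had 119 ± 3.15, 90.9 ± 12.7 and 58.6 ± 13.8 TPM and fell in hyp/c-1 (−1.04, adjusted p = 0.00239), as did LUX, ELF4 and ELF3, and LUX also fell in hyp/hyp (−0.52, adjusted p = 0.0257). LHY, under the minimum, had 17 to 22 reads per WT library, 27 to 59 in hyp/hyp plants and 81 to 137 in hyp/c-1. The LUX call in hyp/hyp was lost without any 1 of the 3 WT libraries or without hyp/hyp replicate 1 or 2 (adjusted p = 0.0533 to 0.0885). The labels give no hour of harvest, and the part of clock phase in the differences of JMJ30 or of the PRC2 genes was not tested. PRR7 and ELF3 were named after their values were seen.

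Among 9 tested antagonists of Polycomb silencing, ULT1 fell in both mutants and none of the others passed. ULT1 encodes a SAND-domain protein that works with trithorax-group factors against CLF-dependent silencing. It had 8.47, 8.08 and 6.24 TPM in WT, 2.41, 3.24 and 2.61 in hyp/hyp plants and 2.46, 3.75 and 1.94 in hyp/c-1. The lowest WT library, replicate 3, was still above the highest mutant library. The mean fell by 63.8% in hyp/hyp (log2 scale −1.19, SE 0.18, adjusted p = 0.00206). In hyp/c-1 it fell by 64.2% (−1.23, adjusted p = 0.00157), and the mutants differed by −0.04 (interval −0.44 to 0.37, adjusted p = 0.915). ATX1, a trithorax-type methyltransferase that binds ULT1 and was named after its values were seen, had 3.06 TPM in each genotype (adjusted p = 0.999 and 0.992).

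MSI1 shares the CAF-1 complex with FAS1 and FAS2, which load histones onto newly made DNA. FAS2 had 3.95, 4.32 and 4.55 TPM in WT, 2.47, 2.76 and 3.37 in hyp/hyp plants and 2.38, 3.08 and 3.00 in hyp/c-1. No mutant library reached the WT range (−0.45, adjusted p = 0.0271, and −0.47, adjusted p = 0.0231). FAS1 had 5.91 ± 0.424, 5.38 ± 0.59 and 4.78 ± 0.372 TPM and did not pass (−0.12, adjusted p = 0.443, and −0.26, adjusted p = 0.108). The FAS2 call in hyp/hyp was lost without any 1 WT library or without hyp/hyp replicate 1 or 2 (−0.50 to −0.38, adjusted p = 0.0604 to 0.0915), and in hyp/c-1 without any 1 WT library or without hyp/c-1 replicate 1 (−0.51 to −0.38, adjusted p = 0.0513 to 0.0818).

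ICU2, FAS2 and MSI1 are also used in DNA replication, so markers of dividing cells were set beside them. The 12 markers summed to 43.2 to 45.8 TPM in WT, 39.7 to 43.2 in hyp/hyp plants and 39.0 to 53.6 in hyp/c-1. Of 10 tested, 1 fell in hyp/hyp plants and none passed in hyp/c-1. The gene that fell was MCM2, a subunit of the replicative helicase, at 7.54, 8.76 and 8.08 TPM in WT, 5.66, 5.90 and 5.61 in hyp/hyp plants and 5.46, 5.99 and 7.40 in hyp/c-1 (−0.44, adjusted p = 0.020, and −0.33, adjusted p = 0.0596). Its call was lost without WT replicate 2 or 3 or hyp/hyp replicate 3 (adjusted p = 0.0507 to 0.0827). The mitotic kinase gene CDKB2;1 had 3.75, 4.89 and 5.51 TPM (adjusted p = 0.190 and 0.0544). What share of dividing cells contributes to the levels of CLF, ICU2 or FAS2 was not tested.

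**Figure D4:**
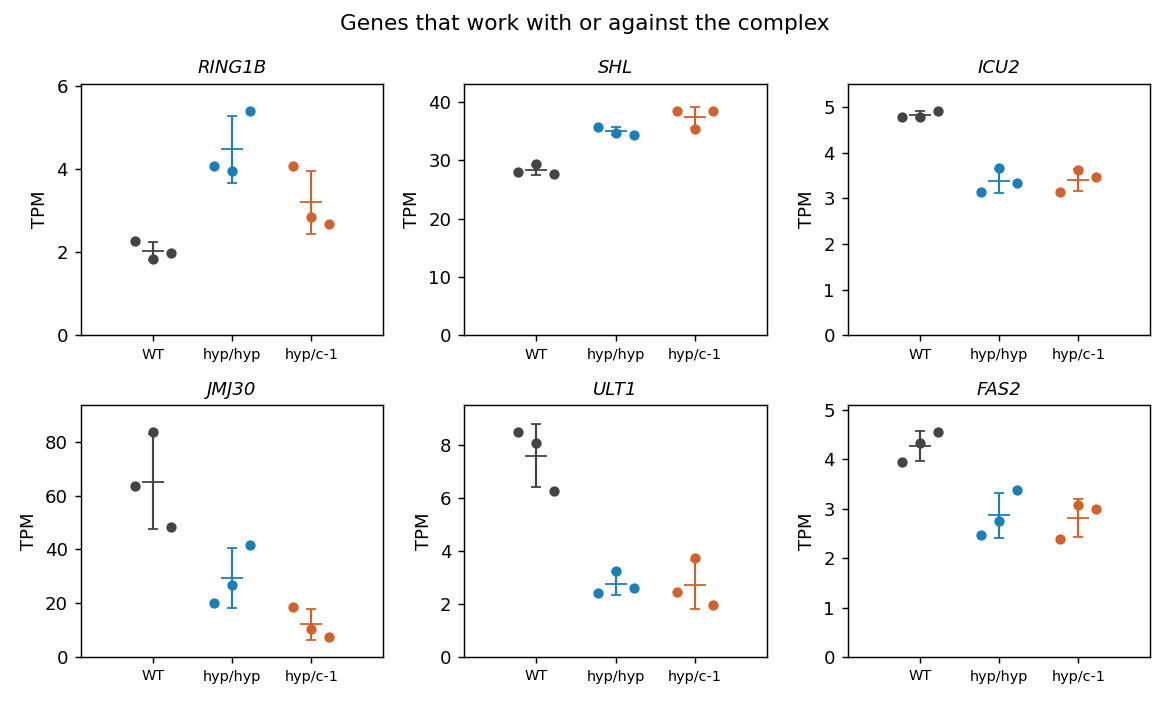
TPM of RING1B, SHL, ICU2, JMJ30, ULT1 and FAS2 in each library, by genotype, with an axis from 0 for each gene; the bar is the mean with its SD. ULT1 lies at 6.24 to 8.47 TPM in WT and at 1.94 to 3.75 in the mutants, and JMJ30 steps down from WT through hyp/hyp to hyp/c-1.

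Known targets of PRC2 were followed in a list of 30 genes, of which 7 passed the expression minimum and 23 did not. Of the 7, 1 rose and 2 fell in hyp/hyp, 1 rose and 3 fell in hyp/c-1, and 1 was higher in hyp/c-1 than hyp/hyp, beside 20.8%, 20.4% and 2.84% of all genes. AGL19 passed the minimum of 1 TPM only through hyp/c-1, where it is highest, so the minimum also selected for its difference between the mutants. MAF4 passed only through WT, and FUS3 only through WT and hyp/hyp. The minimum itself thus selected for a difference in these genes, and the counts over the 7 are a description only. Among the 23 under the minimum, all mutant libraries lay above WT for 5 genes and below for 1 in hyp/hyp, and above for 3 and below for 1 in hyp/c-1. Among all 6091 genes under the minimum with at least 1 read, the shares above and below were 13% and 3.86% in the hyp/hyp comparison, and 15.7% and 4.4% in that of hyp/c-1. The 23 were not held to that read rule and include WUS, which had no read in any library. Histone methylation was not measured in these libraries.

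AGL19, a floral activator held silent by PRC2 until cold, rose in both mutants. It had 0.120, 0.225 and 0.359 TPM in WT, 0.905, 0.949 and 1.16 in hyp/hyp plants and 2.89, 2.35 and 1.78 in hyp/c-1, from 8 to 21, 40 to 64 and 109 to 220 reads. The 3 genotypes did not overlap. The means were 4.28-fold and 9.98-fold over WT (log2(TPM + 1) differences 0.70, adjusted p = 0.00940, and 1.43, adjusted p = 0.000194), and hyp/c-1 was 2.33-fold over hyp/hyp (0.73, adjusted p = 0.0387). With no expression minimum the adjusted p-values were 0.00802, 0.000223 and 0.0475. The call between the mutants did not hold with a pseudocount of 0.1 (adjusted p = 0.0778), with only those 2 groups in the fit (adjusted p = 0.117), or without any 1 library other than hyp/c-1 replicate 1 (adjusted p = 0.0518 to 0.113). Quantile normalization took the hyp/hyp difference from WT to 0.31 (adjusted p = 0.116).

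The flowering repressors MAF4 and MAF5, relatives of FLC that lie in tandem, fell in both mutants. MAF5 had 10.5, 13.3 and 12.2 TPM in WT, 1.49, 0.853 and 1.75 in hyp/hyp plants and 2.70, 1.86 and 2.07 in hyp/c-1 (−2.47, adjusted p = 1.14e-05, and −2.02, adjusted p = 3.93e-05). MAF4 had 2.36 ± 0.164, 0.756 ± 0.0519 and 0.726 ± 0.0247 TPM (−0.94, adjusted p = 0.000412, and −0.96, adjusted p = 0.000246), and with no expression minimum its adjusted p-values were 6.57e-05 and 4.34e-05. For both genes all 6 mutant libraries lay below all 3 WT libraries. FLC itself was under the minimum and went the other way, with 13, 34 and 13 reads in WT, 68, 66 and 69 in hyp/hyp plants and 63, 55 and 38 in hyp/c-1. Its mean TPM was 4.13-fold and 2.50-fold that of WT, untested, and the mutant libraries were all above WT. Without WT replicate 2, the highest of the WT libraries, the folds were 6.36 and 3.85. Without WT replicate 1 they were 3.45 and 2.09, and without WT replicate 3 they were 3.57 and 2.16. Leaving out a library of the mutant gave 3.75 to 4.38 for hyp/hyp and 2.26 to 2.78 for hyp/c-1. Related copies in this family may share reads, depending on how they were counted.

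Of the KNOX homeobox genes, which maintain meristems and are silenced in leaves, KNAT1 had 0, 0 and 1 read in WT, 18, 13 and 26 in hyp/hyp plants and 40, 12 and 23 in hyp/c-1. The means were at least 7.52-fold and 7.69-fold above a floor of 3 reads per WT library. STK, an ovule identity gene, had 0 reads in every WT library, 4, 6 and 6 in hyp/hyp plants and 23, 19 and 14 in hyp/c-1 plants, which puts the means at least 2.21-fold and 5.97-fold above the floor. In both genes all mutant libraries were above all WT libraries, and for STK hyp/c-1 was also above hyp/hyp. KNAT2 (3 or 4 reads in WT, 6 to 12 in hyp/hyp, 4 to 10 in hyp/c-1) and KNAT6 (13 to 22, 16 to 24 and 21 to 23 reads) had TPM values wholly above WT in hyp/hyp plants and overlapping it in hyp/c-1. STM, also a listed KNOX gene, did not rise: it had 0 to 0.0360 TPM in WT, 0.0205 to 0.0285 in hyp/hyp plants and 0 in hyp/c-1. PHE1, a seed gene with a close copy that may share its reads, was lower in both mutants, with 12, 14 and 20 reads in WT, 8, 4 and 3 in hyp/hyp plants and 4, 7 and 6 in hyp/c-1. None of these genes reached the expression minimum, so none was tested.

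FUS3, a regulator of seed maturation, had 0.866, 1.38 and 1.41 TPM in WT, 1.14, 1.16 and 1.62 in hyp/hyp plants and 0.761, 0.518 and 0.287 in hyp/c-1. It fell in hyp/c-1 against WT (−0.55, adjusted p = 0.0405) and had 0.06 in hyp/hyp (adjusted p = 0.821), while the difference between the mutants did not pass (−0.61, adjusted p = 0.0714). The call was lost with only those 2 groups in the fit (adjusted p = 0.0542) and without WT replicate 2 or 3, hyp/hyp replicate 1 or 2, or hyp/c-1 replicate 2 or 3 (adjusted p = 0.0508 to 0.140). FUS3 passed the expression minimum only through WT and hyp/hyp, where it is higher, so the minimum itself selected for this difference. The 4 seed markers, FUS3 among them, summed to 1.19 to 1.56 TPM in WT, 1.23 to 1.69 in hyp/hyp plants and 0.287 to 0.785 in hyp/c-1. Floral organ markers summed to 3.07 to 3.34, 3.30 to 4.17 and 2.11 to 4.19 TPM, and SEP3, the tested gene among them, did not pass (0.01, adjusted p = 0.968, and 0.04, adjusted p = 0.894).

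**Figure D5:**
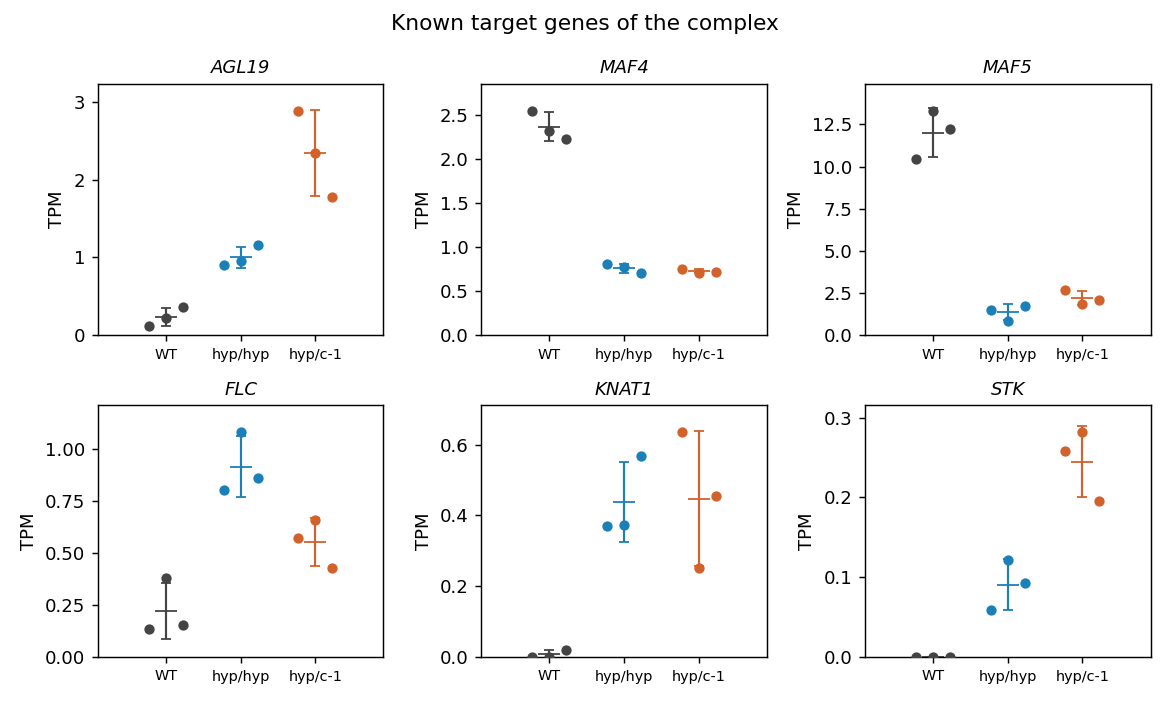
TPM of the PRC2 targets AGL19, MAF4, MAF5, FLC, KNAT1 and STK in each library, by genotype, with an axis from 0 for each gene; the bar is the mean with its SD. AGL19 and STK step up from WT through hyp/hyp to hyp/c-1, MAF4 and MAF5 lie lower in both mutants, and FLC, KNAT1 and STK are under the expression minimum.

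Markers of other tissues were read beside these targets. The 4 root markers summed to 20.6 to 21.5 TPM in WT, 21.3 to 22.4 in hyp/hyp plants and 19.8 to 23.8 in hyp/c-1. SHR, which leaf veins also express, rose in both mutants (0.55, adjusted p = 0.00459, and 0.49, adjusted p = 0.00810). The other tested root marker went the other way, with all libraries of each mutant below WT. Its differences did not pass (−0.24, adjusted p = 0.0707, and −0.23, adjusted p = 0.0827). COBL9, a root hair gene, had 0 reads in every WT library, 2 to 4 in hyp/hyp plants and 5 to 7 in hyp/c-1. The 3 shoot meristem markers summed to at most 0.0360 TPM in any library and were all at 0 in hyp/c-1. Of the 5 leaf markers, CA1 and RBCS1A fell in hyp/hyp (−0.70, adjusted p = 0.00418, and −0.64, adjusted p = 0.0117), the latter call being lost with no expression minimum (adjusted p = 0.0834) and without WT replicate 1 (adjusted p = 0.0523). LHCB2.1 rose in hyp/c-1 (1.2, adjusted p = 0.00313). Leaf marker families hold near-identical copies, so the split of reads among them is uncertain.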

How the data were processed

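Leaf RNA from 9 libraries was analysed, 3 of each genotype, grouped by the genotype in the labels. The deposited values are TPM, an expression measure divided by gene length and library total, and each library sums to 1000000. Feature identifiers belong to Araport11, per the file headers. The submitters' processing notes name fastp 0.20.1, HISAT2 2.1.10, DESeq2 1.26.0 and build TAIR10, with no role for each. The counting program and the treatment of strand are not given in the sources used here. Multiplying TPM by gene span (RefSeq TAIR10.1; 27445 of 27655 genes matched) gave whole reads, within 0.02, for at least 99.98% of values under 2000 reads, against at most 20.0% with summed exon length. The authors' TPM therefore divides by a span that includes introns, which lowers long-intron genes equally in every library. Units are called reads here, although they may be read pairs. Counts of reads used below were recovered in this way and cover counting error only.

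Values were tested as log2(TPM + 1) with limma 3.58.1 (R 4.3.3), 1 model over 9 libraries, eBayes with trend and 6 residual degrees of freedom. Genes averaging at least 1 TPM, plus ATXR5 and ATXR6, were tested (17683), and a gene passed at a Benjamini-Hochberg adjusted p under 0.05 over all of them. The test was also run on simulated data, with the outcome not given here. Genes that did not pass are not thereby shown to be unchanged. Because of the added 1, fold changes of weakly expressed genes come out too small on this scale. Tables and plots were made with Python 3.11.15, pandas 2.3.3, numpy 2.4.6 and matplotlib 3.10.9. The 20 alternatives covered the pseudocount, expression minimum, scaling, samples in the fit, replicate number as a block, limma voom on reads, exon length, the fold rule, the trend and leaving out each library. Libraries were not treated as paired by their replicate numbers.

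The members and gene lists were chosen with earlier results of these data known. Named genes were all members, ATXR5 and ATXR6, and from each list those that passed with an absolute log2 difference of at least 0.5 in any comparison (at most 6), otherwise the 2 with the lowest adjusted p. Listed genes under the minimum were named where the libraries of a mutant all lay above or all below those of WT, at most 6 a list.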

Additional observations from a re-analysis of the deposited data

How the results depend on the processing

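The count of PRC2 genes past the test was 1, 1 and 0 in hyp/hyp against WT, hyp/c-1 against WT and between the mutants. A minimum mean of 5 TPM left 0 and 0 in the comparisons with WT, because CLF, at 4.71 TPM, was then not tested, and requiring an absolute log2 difference of at least 1 also left 0 and 0. Median-of-ratios scaling gave 2 in hyp/c-1 against WT, where SWN joined CLF (0.22, adjusted p = 0.0428). With replicate number as a block the count was 1 in hyp/hyp (CLF, adjusted p = 0.0494) and 0 in hyp/c-1 (CLF, −0.37, adjusted p = 0.0538); same-numbered libraries did not deviate together (mean correlations of 0.02, −0.11 and −0.12), so the numbers were not taken as pairs. The block also ended the calls of MSI3 (−0.46, adjusted p = 0.0809) and FUS3 (−0.55, adjusted p = 0.0814) in hyp/c-1, of JMJ30 (−1.15, adjusted p = 0.0692) and SHL (0.29, adjusted p = 0.0534) in hyp/hyp, and of AGL19 between the mutants (0.73, adjusted p = 0.0963). Leaving out 1 library gave 0 to 1 in both comparisons with WT and 0 between the mutants. Over 18 alternatives CLF ranged from −0.48 to −0.35 in hyp/hyp and from −0.45 to −0.35 in hyp/c-1.

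Differences near 0 changed sign in some settings, none of them past the test. Quantile normalization gave −0.018 for VRN2 and −0.027 for EMF2 in hyp/hyp and 0.038 for EMF2 between the mutants, and median-of-ratios scaling gave −0.0091 and 0.038 for EMF2. Leaving out 1 library gave −0.040 to 0.063 for CLF between the mutants, −0.021 to 0.082 for EMF2 in hyp/c-1, −0.063 to 0.014 for EMF2 between the mutants, −0.00025 to 0.10 for EMF2 in hyp/hyp, −0.094 to 0.033 for LHP1 in hyp/c-1, −0.17 to 0.00056 for MSI1 between the mutants, −0.060 to 0.078 for SWN between the mutants, −0.13 to 0.030 for VEL1 in hyp/c-1, −0.0081 to 0.15 for VEL1 between the mutants and −0.074 to 0.031 for VRN5 in hyp/hyp. The cause was not tested. Without an expression minimum VIN3 was tested as well, which the reported test did not do. With the replicate block, or with only the 2 mutants in the fit, no gene of the whole table passed between the mutants, against 502. Leaving out libraries for the FLC folds was chosen after seeing the data. Depth limits VIN3, MEA and the targets under the minimum.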
